A study of Sus scrofa with 8 samples.

Results

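The constitutive proteasome genes were the genes of the count table with a pig Ensembl symbol of PSMA, PSMB, PSMC or PSMD and a number, leaving out the interferon-inducible PSMB8, PSMB9 and PSMB10. They comprise 32 of 24358 genes, of which 14692 have a symbol: 7 PSMA genes and 6 PSMB genes for the 20S core, 6 PSMC genes for the 19S ATPases and 13 PSMD genes for the 19S non-ATPase subunits. The proteasome is the protease that breaks down proteins tagged with ubiquitin. Its 20S core is a barrel of stacked rings, in which α subunits form the outer gates and β subunits the inner rings with the proteolytic sites. The 19S particle caps the core, and its non-ATPase subunits bind and deubiquitinate substrates, while its ATPase ring unfolds them and opens the gate. In cells exposed to interferon, IRF-1 takes part in switching on the immunoproteasome subunits, which replace the constitutive catalytic subunits in newly built cores, and pluripotent cells depend on proteasome activity for the quality control of their proteins.

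RNA-seq was performed on DOX-hLIF-2i piPSCs, which are porcine induced pluripotent stem cells made from embryonic fibroblasts with an OCT4-tdTomato reporter by doxycycline-inducible OSKM factors. Per the study they were kept with doxycycline, LIF and inhibitors. The sample labels name the LCDMV medium, and which medium the 4 libraries had is not settled here. The IRF-1 overexpressing cells (replicates 1 and 3, n = 2) were transfected with PB-CAG-IRF1-Flag, in which the CAG promoter drives flag-tagged IRF-1, together with a transposase plasmid, and the control cells (replicates 6 and 8, n = 2) with PB-CAG-Flag. Puromycin selected transfected cells as mixed populations, and feeder cells were reduced by letting them attach before RNA extraction. The sample labels give IRF-1 overexpression as the genotype of all 4 libraries, whereas the study assigns replicates 6 and 8 to the control, and that assignment was used. No source used here says which of the established lines each library came from or whether the replicates were separate transfections, so p-values measure only the spread between these libraries, which may be technical. The libraries held 24923319 and 20858333 counts in the IRF-1 overexpressing cells, and 15925429 and 17097669 counts in the control cells. IRF1 was at 330 and 264 CPM (counts scaled to a common library size with TMM factors) in the overexpressing replicates and at 3.52 and 3.20 CPM in the controls, and this difference follows the assigned groups (log2 fold change 6.46, SE 0.21, adjusted p = 3.65e-05).

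The fitted differences of the constitutive proteasome genes between the groups were small, and the 11 tested 20S core genes with a symbol all had a positive fitted value. Of the catalytic subunits without a symbol, described further on, the gene at PSMB6 had a negative value (-0.045) and that at PSMB5 a positive one (0.089). Both of these changed sign when single libraries were left out, from -0.19 to 0.13 for PSMB6 and from -0.11 to 0.33 for PSMB5. Of the 32 genes, 30 passed the filter on low counts, and each of these had between 612 and 7094 counts in every library. PSMA8 and PSMB11, whose products replace standard core subunits in the testis and the thymus, were not tested. PSMA8 had 1 count in control replicate 8 and 0 elsewhere, and PSMB11 had 0 counts in all 4 libraries, which allows a level of up to 0.188 CPM in the shallowest of them. With calls that need both an adjusted p under 0.05 and a log2 difference of 1 or more, 0 of the 30 genes were higher (8.61% of the 13250 genes tested) and 0 were lower (10.6%) with edgeR's quasi-likelihood test. DESeq2 and limma-voom also called 0 in each direction by this rule, beside 1073 and 1113 higher and 1324 and 1392 lower of all 13250 genes. At an unadjusted p under 0.05 with this difference the number of members was 0 as well, beside 1269 higher and 1618 lower over all genes. At an adjusted p under 0.05 with any fold change, 3 were higher (13.9% of all genes tested), namely PSMA5, PSMA2 and PSMD5, and 0 were lower (15.5%). In this fit the share of members called higher was below that of all genes, but this order depended on the fit. Without a filter on low counts 6 of 31 members were called higher (12.9% of 17823 genes), without control replicate 6 it was 5 of 30 (14.7% of 13719 genes) and without control replicate 8 it was 6 of 30 (15.3% of 13817 genes), whereas 0 were called without overexpressing replicate 1 (6.35% of 13507 genes) or replicate 3 (9.80% of 13614 genes). By the same rule DESeq2 and limma-voom each called 4 higher and 0 lower, beside 1829 and 1850 higher and 2023 and 2059 lower of all 13250 genes. An unadjusted p under 0.05 was met by 8 members that were higher and 0 that were lower, and over all genes by 2588 higher and 2810 lower. Both overexpressing libraries lay above both controls for 16 of the 30 genes (34.8% of all genes tested), and both lay below for 0 genes (33.8%), while the groups overlapped for 14 genes. This tally is of TMM-scaled CPM. In TPM (counts divided by the exon length in the table and scaled to the same total in every library), a comparison added after the values had been seen, 11 lay above (26.8% of all genes tested) and 4 below (40.4%), namely PSMC6, PSMD9, PSMD12 and PSMD14, and 15 overlapped. In TPM the median log2 ratio of group means was 0.068 over the members and -0.11 over all genes tested, and 6 genes with a positive fitted value had a lower mean in the overexpressing cells (PSMA1, PSMB3, PSMC3, PSMD8, PSMD9 and PSMD11). The median log2 fold change was 0.18, against -0.0016 over all genes tested, and the members ranged from -0.14 (PSMD12) to 0.62 (PSMA5), with standard errors between 0.132 and 0.161.

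**Figure D1:**
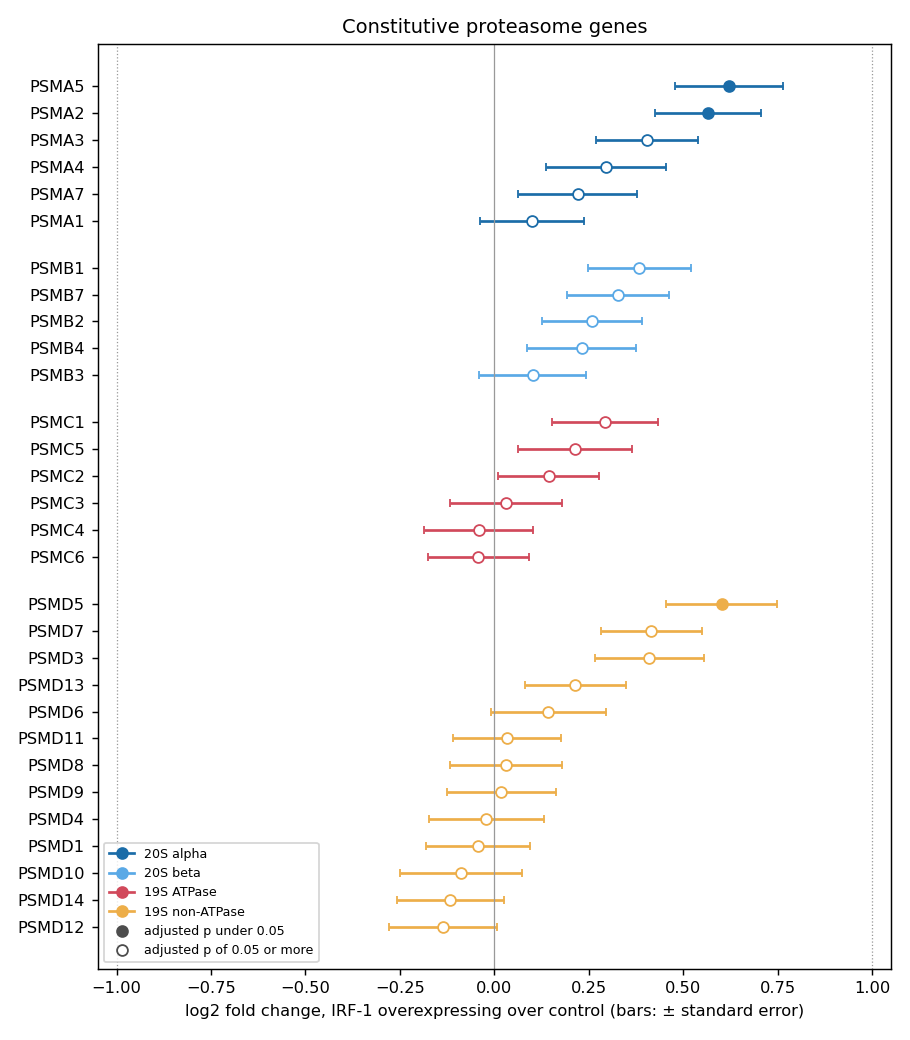
Fitted log2 fold change of the 30 tested constitutive proteasome genes, overexpressing over control (horizontal axis, n = 2 libraries a group), ordered within each subunit class, with bars of 1 standard error, filled points for an adjusted p under 0.05 and dotted lines at a log2 fold change of 1 in either direction. The 11 plotted genes of the 20S core, which do not include the unnamed genes at PSMA6, PSMB5 and PSMB6 (the last at -0.045), lie to the right of 0, and 7 of the 19 genes of the 19S particle lie to the left.

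The α subunits of the 20S core form the gated outer rings of the barrel. All 6 tested PSMA genes had a positive log2 fold change, with a median of 0.35, and in 5 of them the overexpressing libraries lay above the controls in CPM (34.8% of all genes tested). In TPM the median log2 ratio of group means was 0.23 (-0.11 over all genes tested). By that measure 3 of the 6 lay above both controls (26.8% of all genes tested) and 0 below (40.4%). PSMA5 (chromosome 4, 110662692 to 110721525, assembly Sscrofa11.1) was counted at 158 CPM in both overexpressing replicates, and at 110 and 95.3 CPM in control replicates 6 and 8. Both overexpressing libraries were well above both controls, and PSMA5 rose (log2 fold change 0.62, SE 0.143, adjusted p = 0.0151). PSMA2 (chromosome 18, 51909347 to 51923153) was at 228 and 248 CPM in the overexpressing cells and at 170 and 151 CPM in the controls. Here too the groups were apart, and PSMA2 rose (log2 fold change 0.57, SE 0.140, adjusted p = 0.0198). PSMA3, another ring subunit, was at 205 and 223 CPM against 157 and 166 CPM. Its groups did not overlap, but the difference did not pass the test (log2 fold change 0.40, adjusted p = 0.0584), except without control replicate 8 (adjusted p = 0.0308) or a filter on low counts (adjusted p = 0.0477). PSMA4 was at 144 CPM in both overexpressing libraries and at 104 and 131 CPM in the controls (log2 fold change 0.30, adjusted p = 0.203), and depended on single controls, at 0.13 without replicate 6 and 0.48 (adjusted p = 0.0256) without replicate 8. PSMA7, the PSMA gene with the most counts, was at 277 and 341 CPM against 286 and 245 CPM, so that one control lay between the overexpressing replicates (log2 fold change 0.22, adjusted p = 0.335), and the fitted value was 0.38 without overexpressing replicate 1, 0.070 without replicate 3, 0.34 without control replicate 6 and 0.12 without control replicate 8. PSMA1 differed least, at 150 and 166 CPM against 147 and 148 CPM (log2 fold change 0.10, adjusted p = 0.624), with 0.19 without overexpressing replicate 1 and 0.028 without replicate 3. The calls of PSMA5 and PSMA2 were lost when either overexpressing library was left out. Without replicate 1 the adjusted p was 0.106 for PSMA5 and 0.099 for PSMA2, and without replicate 3 it was 0.0929 and 0.163, within a range over all alternatives of 0.00219 to 0.106 and 0.00408 to 0.163. In these fits the log2 fold changes stayed of similar size (0.64 and 0.62 for PSMA5, 0.64 and 0.51 for PSMA2), while the SE rose (0.231 and 0.234 for PSMA5, 0.227 and 0.230 for PSMA2). Of the PSMA5 exon bases, 10.5% are shared with SORT1 on the same strand and 0.814% with SYPL2, whereas PSMA2 shares none with another gene.

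The β subunits make up the inner rings. Among them PSMB5, PSMB6 and PSMB7 encode the constitutive catalytic subunits, with chymotrypsin-like, caspase-like and trypsin-like activity, and the other tested PSMB genes encode structural subunits. All 5 tested PSMB genes had a positive log2 fold change, with a median of 0.26, and the overexpressing libraries were above the controls in 4 of them (34.8% of all genes tested). In TPM the median log2 ratio of group means was 0.15 (-0.11 over all genes tested). By that measure 3 of the 5 lay above both controls (26.8% of all genes tested) and 0 below (40.4%). By edgeR 0 of the 5 were called in either direction (13.9% of all genes tested higher and 15.5% lower), and DESeq2 and limma-voom also called 0. At an unadjusted p under 0.05, 2 were higher (19.5% of all genes tested). PSMB1 had the highest fold change of the class, at 108 and 118 CPM in the overexpressing cells and 85.9 and 87.9 CPM in the controls. The replicates of each group were close together and the groups did not overlap (log2 fold change 0.38, SE 0.136, adjusted p = 0.071). PSMB7 (chromosome 1, 265172237 to 265235480) was at 194 and 211 CPM against 158 and 165 CPM. The overexpressing libraries were again the higher ones (log2 fold change 0.33, adjusted p = 0.108). PSMB2 and PSMB4 followed with log2 fold changes of 0.26 and 0.23, the latter 0.15 without overexpressing replicate 3 and also without control replicate 8. PSMB3 was at 105 and 116 CPM against 108 and 97.8 CPM, and its groups overlapped (log2 fold change 0.10, adjusted p = 0.632), with values from 0.031 without overexpressing replicate 3 to 0.19 without replicate 1. Of its exon bases, 53.3% belong also to PIP4K2B on the opposite strand.

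PSMA6, PSMB5, PSMB6 and PSMD2 are not among the 32 genes, because the table of gene names pairs no identifier with these symbols. At the position that RefSeq gives each of them on the same assembly, the count table holds 1 unnamed gene, and these 4 were added after the values of the members had been seen. The unnamed gene at PSMA6, an α subunit, was at 144 and 150 CPM in the overexpressing cells and at 107 and 113 CPM in the controls. Its groups did not overlap, and the difference was at the threshold (log2 fold change 0.42, adjusted p = 0.0512), passing it with DESeq2 (adjusted p = 0.0445) and limma-voom (adjusted p = 0.0435), with a range of 0.0301 to 0.283 over all alternatives. The unnamed gene at PSMB5 was at 174 and 195 CPM against 200 and 147 CPM. In it the controls spanned both overexpressing libraries (log2 fold change 0.089, adjusted p = 0.741), and it shares 28.2% of its exon bases with C14orf93 on the same strand. The unnamed gene at PSMB6 was at 166 and 193 CPM against 206 and 164 CPM, and overlapped in the same way (log2 fold change -0.045, adjusted p = 0.865). The unnamed gene at PSMD2, a scaffold subunit of the 19S base that binds ubiquitin shuttles, was at 458 and 491 CPM against 450 and 453 CPM (log2 fold change 0.071, adjusted p = 0.707), with 0.13 without overexpressing replicate 1 and 0.025 without replicate 3.

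The catalytic subunits were compared with their interferon-inducible counterparts per length, as TPM. Of each pair, PSMB8 takes the place of PSMB5, PSMB9 that of PSMB6 and PSMB10 that of PSMB7. The immunoproteasome genes rose in the overexpressing cells, with log2 fold changes of 4.34 (PSMB8, adjusted p = 0.000145), 3.64 (PSMB9, adjusted p = 0.000686) and 3.33 (PSMB10, adjusted p = 9.79e-05). In TPM, the gene at PSMB5 was at 58.4 ± 5.14 (SD, n = 2) in the overexpressing cells and 59.0 ± 9.56 (SD, n = 2) in the controls, while PSMB8 was at 167 ± 26.0 and 8.91 ± 2.55. Per length, PSMB8 was therefore below the gene at PSMB5 in both controls and above it in both overexpressing libraries. Without division by length it was below in all 4, at 167 and 132 CPM in the overexpressing cells and at 9.22 and 5.66 CPM in the controls. The gene at PSMB5 extends to position 76058891 of chromosome 7, whereas PSMB5 ends at 76021922 in RefSeq, so its exon length may count bases outside PSMB5, and the order of this pair is not settled here. PSMB9 stayed below the gene at PSMB6 in every library, at 72.4 ± 9.83 against 149 ± 17.4 TPM (SD, n = 2) in the overexpressing cells and at 6.22 ± 3.35 against 165 ± 17.6 TPM in the controls. PSMB10 was the smaller member of its pair throughout, at 69.3 ± 6.65 against 457 ± 31.2 TPM for PSMB7 in the overexpressing cells and at 7.43 ± 0.363 against 394 ± 34.7 TPM in the controls. The order within a pair depends on the annotated exon lengths (7659 bases for the gene at PSMB5, 5501 for PSMB10 and 1075 for PSMB7) and on shared exon bases. PSMB10 shares 49.1% of its exon bases with PSKH1 on the opposite strand and 14.5% with CTRL on the same strand, and PSMB9 shares 24.6% with TAP1 on the opposite strand. The change of each gene between the groups does not depend on its length, but counts from outside PSMB5 may enter the change of the gene there.

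**Figure D2:**
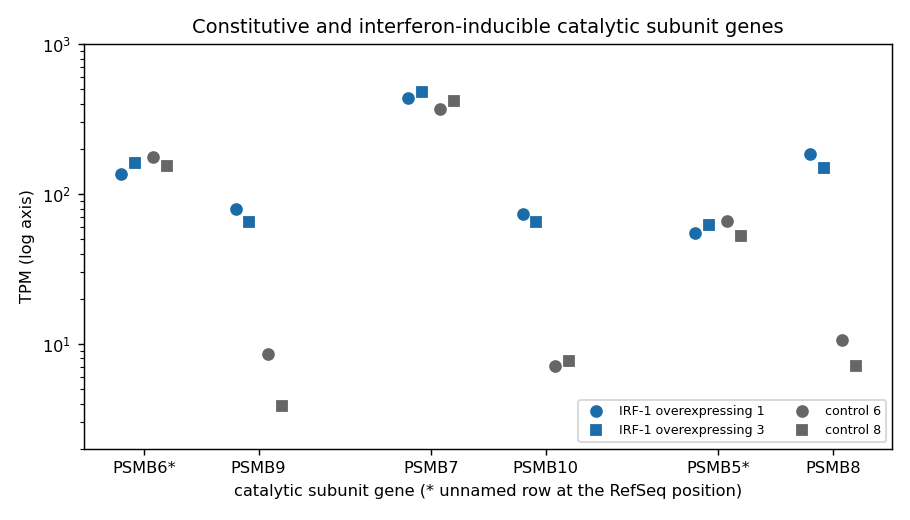
Level per length (TPM, log axis) of the constitutive catalytic subunit genes and their interferon-inducible counterparts in each of the 4 libraries (circles and squares are the replicates of a group), with an asterisk for an unnamed gene at the RefSeq position of the symbol. PSMB8, PSMB9 and PSMB10 are higher in both overexpressing libraries, whereas the libraries of the groups overlap for the genes at PSMB5 and PSMB6, and PSMB7 lies between 369 and 479 TPM.

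The ATPase subunits of the 19S base, encoded by the PSMC genes, form the ring that pulls substrates into the core. Of the 6 genes, 0 were called in either direction by edgeR (13.9% of all genes tested higher and 15.5% lower), DESeq2 or limma-voom. An unadjusted p under 0.05 was reached by 0 of them (19.5% of all genes tested higher and 21.2% lower). The median log2 fold change was 0.087, with 4 positive and 2 negative values, and the overexpressing libraries were above the controls in 3 genes (34.8% of all genes tested). It was 0.18 without overexpressing replicate 1 and 0.035 without replicate 3. In TPM the median log2 ratio of group means was -0.023 (-0.11 over all genes tested), with 3 higher and 3 lower means. By that measure 1 gene lay above both controls (26.8% of all genes tested) and 1 below (40.4%). PSMC1 had the highest fold change, at 134 and 149 CPM in the overexpressing cells and 119 and 112 CPM in the controls. The groups did not overlap (log2 fold change 0.29, SE 0.140, adjusted p = 0.16), and 37.2% of its exon bases are shared with NRDE2 on the opposite strand. PSMC6 was at 125 and 124 CPM against 125 and 132 CPM, nearly level in 3 of the 4 libraries (log2 fold change -0.042, adjusted p = 0.844). PSMC4 was at 97.4 and 112 CPM against 104 and 112 CPM, and its overexpressing replicates differed from each other by more than the group means (log2 fold change -0.041, adjusted p = 0.86). The sign of PSMC3, PSMC4 and PSMC6 changed when a single library was left out.

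The PSMD genes encode the 19S non-ATPase subunits, together with PSMD5, PSMD9 and PSMD10, chaperones that help to assemble the 19S base and leave the finished particle. Their median log2 fold change was 0.032 over 13 genes, with 8 positive and 5 negative values and 4 genes in which the overexpressing libraries were above the controls (34.8% of all genes tested). Without the 3 chaperones, a choice made after the values had been seen, the median was 0.033. In TPM the median log2 ratio of group means over the 13 genes was negative, at -0.077 (-0.11 over all genes tested), with 5 higher and 8 lower means. By that measure 4 genes lay above both controls (26.8% of all genes tested) and 3 below (40.4%). PSMD5 (chromosome 1, 260846408 to 260868735) was the only PSMD gene called by edgeR, at 86.5 and 89.7 CPM in the overexpressing cells and 53.1 and 62.9 CPM in the controls. Both overexpressing libraries were above both controls, and PSMD5 rose (log2 fold change 0.60, SE 0.146, adjusted p = 0.0188). Its adjusted p was 0.106 without overexpressing replicate 1 and 0.113 without replicate 3, and ranged from 0.00399 to 0.113 over all alternatives. The log2 fold change in these fits was 0.64 and 0.58, with an SE of 0.232 in each. The other chaperone genes were not called. PSMD9 was at 48.2 and 49.9 CPM against 50.8 and 46.1 CPM, with overlapping groups (log2 fold change 0.018, adjusted p = 0.939). PSMD10, on chromosome X, was at 38.8 and 41.9 CPM against 39.2 and 46.6 CPM (log2 fold change -0.089, adjusted p = 0.717). With single libraries left out, both changed sign, from -0.041 to 0.088 for PSMD9 and from -0.21 to 0.051 for PSMD10.

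Among the subunits proper, PSMD7, the partner of the deubiquitinase in the lid, was at 178 and 168 CPM in the overexpressing cells and at 131 and 128 CPM in the controls. Its groups were far apart for their spread, and the difference was at the threshold (log2 fold change 0.42, SE 0.133, adjusted p = 0.0512), passing it with DESeq2 (adjusted p = 0.0418) and limma-voom (adjusted p = 0.0426), with a range of 0.0418 to 0.323 over all alternatives. PSMD3, a lid subunit and the PSMD gene with the highest mean TPM, was at 249 and 272 CPM against 213 and 180 CPM. It had separate groups as well (log2 fold change 0.41, adjusted p = 0.0702). It passed the threshold without a filter on low counts (adjusted p = 0.0404) and without control replicate 6. Its log2 fold change was 0.53 without control replicate 6 and 0.30 without replicate 8. PSMD14, the deubiquitinase that removes ubiquitin chains from substrates, was at 108 and 119 CPM against 130 and 116 CPM. Its libraries overlapped (log2 fold change -0.12, from -0.19 to -0.037 with single libraries left out, adjusted p = 0.579), so the partners PSMD7 and PSMD14 had fitted values of opposite sign, a difference that was not tested. PSMD12, another lid subunit, had the lowest fold change of all 30 genes, at 118 and 124 CPM against 123 and 141 CPM (log2 fold change -0.14, adjusted p = 0.518), but -0.024 without control replicate 8, -0.086 without overexpressing replicate 1 and -0.23 without control replicate 6. PSMD1, a scaffold subunit of the base, was at 179 and 184 CPM against 175 and 199 CPM, so that the controls enclosed the overexpressing libraries. PSMD4, a ubiquitin receptor, was at 54.9 and 64.0 CPM against 63.6 and 57.1 CPM, with the controls inside the range of the overexpressing libraries.

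Summed over the named genes of each class, the core genes had larger ratios between the groups than the 19S genes, a difference that was not tested. These sums leave out the unnamed genes at PSMA6 (log2 fold change 0.42), PSMB5 (0.089), PSMB6 (-0.045) and PSMD2 (0.071). No class sum was formed with them, so the PSMB ratio does not cover PSMB5 and PSMB6, whose groups overlapped. The 7 PSMA genes added up to 1161 and 1281 CPM in the overexpressing replicates and to 973 and 937 CPM in the controls, a ratio of group means of 1.28. The 6 PSMB genes reached 784 and 846 CPM against 690 and 670 CPM, a ratio of 1.20. In both core classes the lower overexpressing library, replicate 1, was above the higher control. For the 6 PSMC genes the sums were 795 and 881 CPM against 792 and 764 CPM (ratio 1.08), and for the 13 PSMD genes 1562 and 1666 CPM against 1474 and 1460 CPM (ratio 1.10). The PSMC sum of overexpressing replicate 1 was thus almost that of control replicate 6. All 32 genes together came to 3880 ± 69.9 CPM (SD, n = 2) in the controls and to 4488 ± 264 CPM (SD, n = 2) with IRF-1 overexpression, a ratio of 1.16. With the 4 unnamed genes this ratio was 1.14. A ratio of 20S to 19S counts, formed within each library after these values had been seen, does not depend on the scaling between libraries. It was 0.825 and 0.835 in the overexpressing replicates and 0.734 and 0.722 in the controls. The difference between the groups, by a factor of 1.14, was larger than that between replicates, and with the 4 unnamed genes it was 1.12.

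**Figure D3:**
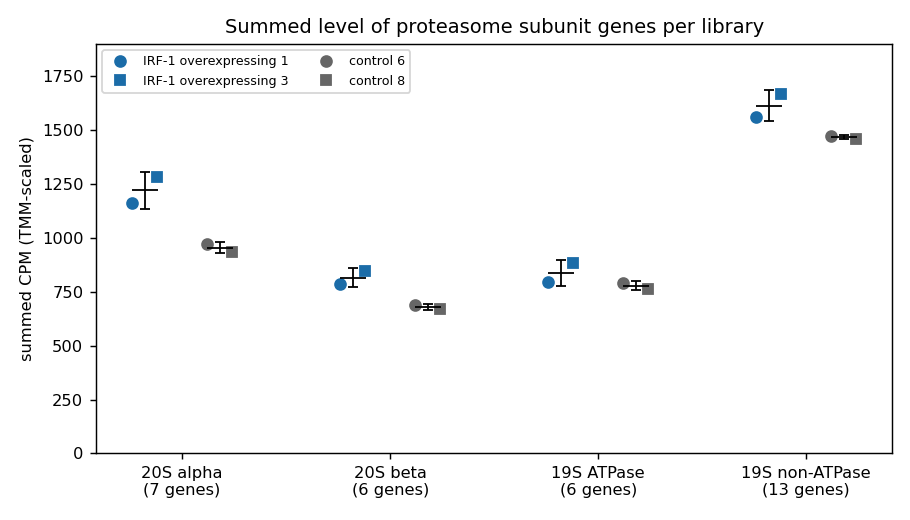
Summed CPM of each subunit class in the 4 libraries (symbols), with the mean of each group (horizontal line) and its SD (bars, n = 2). The overexpressing libraries lie above the controls by a ratio of group means of 1.28 for the α genes and 1.20 for the β genes, and by 1.08 and 1.10 for the 19S classes. The sums leave out the unnamed genes at PSMA6, PSMB5, PSMB6 and PSMD2.

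The overexpressing replicates differed from each other in one direction for these genes. Replicate 3 was above replicate 1 for 27 of the 30 tested genes, against 6672 of all 13250 genes tested. It was likewise above for 6 of the 7 tested genes of the CCT chaperonin, a complex compared further on. The median log2 difference of replicate 1 from replicate 3 was -0.13 over the members and -0.0018 over all genes. The median difference between the groups, 0.18, was not much larger than this gap. Against the controls, overexpressing replicate 1 had a median log2 difference over the members of 0.041 from control replicate 6 and 0.12 from control replicate 8, and replicate 3 of 0.21 and 0.22. For the α genes the same 4 differences were 0.40, 0.24, 0.49 and 0.45, all larger than the difference between replicates, and for the PSMD genes they were -0.013, -0.054, 0.095 and 0.16. Without overexpressing replicate 3 the median of the 30 genes was 0.085, and that of the PSMD genes was -0.037. In bulk samples, fewer cells of a type and less RNA per cell cannot be told apart.

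Per length, the 30 tested genes spanned a 22.5-fold range of mean TPM over the 4 libraries. PSMB7 was the highest in both groups, with a mean of 425 TPM. PSMD3, PSMB2 and PSMA1 came next, in this order in the overexpressing cells (292, 265 and 244 TPM) and in the reverse order in the controls (237, 240 and 246 TPM). The PSMC genes were the most even class, from 54.2 TPM (PSMC4) to 126 TPM (PSMC5), a range of 2.32-fold. In the controls PSMC1 was lower than PSMC4 (54.5 and 57.1 TPM). In the PSMA class the mean TPM ran from 58.9 (PSMA5) to 245 (PSMA1), and in the PSMB class from 53.5 (PSMB3) to 425 (PSMB7). PSMD9 and PSMD10, both chaperones, had the lowest levels per length of all, at 37.4 and 18.9 TPM. Exon lengths ran from 1075 (PSMB7) to 5979 bases (PSMC3), and the order and ranges above depend on these annotated lengths. Without division by length PSMA7 (5168 bases), not PSMB7, had the highest mean CPM of the members. Of the 30 genes, 14 share exon bases with a neighbour. For PSMA4, PSMA5 and PSMC6 such a neighbour has the same orientation, so that strand could not separate the reads, and for neighbours in the opposite orientation the reads cannot be told apart because the strand setting is not stated. The median log2 fold change was 0.18 in these 14 genes and 0.20 in the other 16, a split made after the values had been seen. The 32 genes lie on 13 chromosomes, with at most 5 on any of them.

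Factors that build or regulate the proteasome were looked at alongside. Of 6 assembly factors, 3 have a named gene (POMP, PSMG3 and PAAF1). By edgeR (13.9% of all genes tested higher and 15.5% lower), DESeq2 or limma-voom 0 of them were called. An unadjusted p under 0.05 was also met by 0 of them (19.5% of all genes tested higher and 21.2% lower). POMP, the chaperone that completes the core, was at 97.4 and 115 CPM in the overexpressing cells and 92.2 and 76.3 CPM in the controls, without overlap. Its log2 fold change was 0.33 (adjusted p = 0.165), and 0.21 to 0.47 with single libraries left out. PAAF1 lay below both controls, at 29.2 and 35.09 CPM against 35.14 and 38.2 CPM (log2 fold change -0.19, from -0.32 to -0.051 with single libraries left out). PSMG3 overlapped, and its log2 fold change of -0.046 was the median of the 3. Of the 5 activators and inhibitors, 2 were higher by an adjusted p under 0.05 and a log2 difference of 1 or more (8.61% of all genes tested), and 0 were lower (10.6% with edgeR) by any of the tools or at an unadjusted p under 0.05. PSME2, a subunit of the interferon-inducible PA28 cap, was at 24.9 and 23.0 CPM against 7.10 and 7.03 CPM. The replicates nearly coincided, and PSME2 rose (log2 fold change 1.76, SE 0.207, adjusted p = 0.00107), with 57.2% of its exon bases shared with RNF31 on the opposite strand. Its partner PSME1 was counted at only 3.34 and 1.87 CPM against 0.768 and 0.8 CPM (log2 fold change 1.73, SE 0.482, adjusted p = 0.0311), and shares 40.8% of its exon bases with FITM1 on the same strand and 19.3% with EMC9 on the opposite strand. This call was lost with DESeq2 (log2 fold change 1.74, adjusted p = 0.0525), without overexpressing replicate 1 (1.26) and without either control (1.70 without replicate 6 and 1.77 without replicate 8). PSME3, the nuclear cap subunit, PSME4 and the inhibitor PSMF1 were not called, with log2 fold changes of 0.29, -0.30 and 0.44. With single libraries left out PSME3 ranged from 0.12 to 0.49.

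Proteins that bind the proteasome, such as ubiquitin shuttles and deubiquitinases, had 12 named genes of 13, of which 11 were tested. By edgeR (13.9% of all genes tested higher and 15.5% lower), DESeq2 and limma-voom 0 of them were called in either direction. At an unadjusted p under 0.05, 3 were higher (19.5% of all genes tested) and 1 was lower (21.2%), and the median log2 fold change was 0.055. ADRM1, a ubiquitin receptor, had 0 counts in all 4 libraries, but 100% of its exon bases are shared with an unnamed gene on the same strand, so that this says nothing of its level. Of 10 named genes that control proteasome gene transcription, 1 was higher (13.9% of all genes tested) and 2 were lower (15.5%) at an adjusted p under 0.05, numbers near those shares. NFE2L2, a stress-responsive activator of proteasome genes, was at 19.6 and 22.9 CPM in the overexpressing cells and at 73.5 and 60.8 CPM in the controls. The groups were far apart, and NFE2L2 fell by 1.66 in log2 units (SE 0.175, adjusted p = 0.000773). NFE2L1, which raises proteasome genes when the proteasome is inhibited, was at 147 and 160 CPM against 239 and 212 CPM, and fell by 0.56 in log2 units (SE 0.140, adjusted p = 0.0207). The call was lost without overexpressing replicate 1 (log2 fold change -0.49) or replicate 3 (-0.62). NFYA, a subunit of the CCAAT-binding factor, was at 64.9 and 58.0 CPM against 41.5 and 43.3 CPM, and rose (log2 fold change 0.54, adjusted p = 0.0278). It was likewise not called without overexpressing replicate 1 (log2 fold change 0.47) or replicate 3 (0.62). NFE2L1 and NFYA were named after their values had been seen. Any link between these factors and the levels of the subunit genes was not tested.

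The CCT chaperonin, a ring complex that folds actin and tubulin, served as a comparison. All 7 genes with a symbol, of 8, were tested and had a positive log2 fold change, with a median of 0.15, except that TCP1 ranged from -0.018 to 0.25 with single libraries left out, and in 5 of them both overexpressing libraries were above both controls (34.8% of all genes tested). By edgeR 1 of the 7 was called, CCT8, beside 13.9% of all genes tested (log2 fold change 0.40, adjusted p = 0.0473). This call was lost with library size alone (adjusted p = 0.0609), without overexpressing replicate 1 or replicate 3 and without control replicate 6. The log2 fold change in these fits was 0.40, 0.41, 0.41 and 0.33. The summed level of the 7 genes was 4521 and 4663 CPM in the overexpressing cells and 3910 and 3951 CPM in the controls, a ratio of 1.17 beside the 1.16 of the proteasome genes. In TPM their median was 434 in the overexpressing cells and 432 in the controls. The mean TPM was lower in the overexpressing cells for TCP1 (119 against 120) and CCT4 (231.8 against 232.1), and higher for the other CCT genes.

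Other differences between the libraries ran along with the groups. Mitochondrial genes took 8.62% and 7.57% of the counts in the overexpressing replicates and 6.29% and 6.68% in the controls, with exact 95% binomial intervals of at most 0.0119 percentage points to either side, for counting error only. The markers below were called with edgeR by an adjusted p under 0.05 and a log2 difference of 1 or more, which 8.61% of all genes tested met as higher and 10.6% as lower. Of 7 trophoblast markers, 5 were tested and 4 were lower in the overexpressing cells, with a summed level of 286 and 1129 CPM against 15681 and 9619 CPM. KRT8 was the most abundant, at 250 and 1014 CPM against 12015 and 7489 CPM, whereas CDX2 had 0 counts in every library and ELF5 was near 0. GATA3 was not called, at 11.0 and 7.45 CPM against 11.4 and 6.29 CPM. Its log2 fold change was 0.066, from -0.29 to 0.55 with single libraries left out. Of 12 pluripotency markers 6 have a named gene, and of the 5 tested LIN28A, CDH1 and ESRRB were lower, while DNMT3B and EPCAM, with log2 fold changes of 0.27 and 0.21, were not called. Leaving out control replicate 6 gave 0.032 for DNMT3B, and leaving out replicate 8 gave 0.56, while EPCAM ranged from 0.13 to 0.31 with single libraries left out. The sum of the 6 was 1234 and 1277 CPM against 1480 and 1642 CPM, DNMT3B had the most counts but LIN28A the highest TPM, and NANOG was near 0, at 0.529 CPM or less. POU5F1 and SOX2, which define these cells, have no named gene here, so the label could not be checked on them. Of 10 fibroblast markers 9 have a named gene and 4 were tested, with 1 higher (COL1A2) and 3 lower (PDGFRB, COL1A1 and DCN). COL1A2 was not called without overexpressing replicate 1 (log2 fold change 0.65) or control replicate 8 (0.78). DCN was not called without overexpressing replicate 3 (log2 fold change -3.18). COL1A2 was the most abundant in the overexpressing cells and PDGFRB in the controls, with sums of 144 and 88.0 CPM against 204 and 105 CPM. The defining COL3A1 and LUM were near 0. The 6 lymphoid and myeloid markers summed to 8.77 and 10.3 CPM against 11.6 and 8.23 CPM, mostly CD68, and CD3E and LYZ had 0 counts. The part of these differences in the levels of the proteasome genes was not tested.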

How the data were processed

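RNA-seq reads were, per the study's methods and the submitters' notes, mapped to Sscrofa11.1 with HISAT2 and counted with featureCounts 1.6.4. The authors deposited whole-number counts per Ensembl gene with its exon length, without normalization. The strand setting and annotation release are not given in the sources used here. Symbols came from a table of gene names, and 4 unnamed genes were placed by RefSeq coordinates. Differential expression was computed with edgeR 4.0.16 (R 4.3.3) on 4 libraries, with TMM factors (0.982 to 1.02), filterByExpr, its quasi-likelihood test, and p-values adjusted by the Benjamini-Hochberg method across 13250 genes (common dispersion 0.0313). Standard errors were taken as the fold change over the root of F. Replicates were kept as separate samples, since their counts differed beyond sampling noise (chi-square of 17.9 and 31.3 for each degree of freedom). A count of 3 was taken as the floor. Alternatives were size factors of the DESeq2 type, library size alone, no filter, DESeq2 1.42.0, limma-voom (limma 3.58.1), counts without 37 mitochondrial and the 10 most abundant genes, and each library left out. The fit was tested on simulated counts. Named genes were IRF1, the catalytic subunits, for each class the genes with the highest and lowest TPM and fold change, and genes of the proteasome lists called with a log2 fold change of at least 1. Any other gene was named after its values were seen. The members and lists were chosen with earlier results of these data known. The ChIP-seq libraries were not used here.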

Additional observations from a re-analysis of the deposited data

How the results depend on the processing

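Between the TMM, DESeq2-type and library-size scalings, filters and tools, the fitted directions of the 30 tested genes did not change, and the calls of PSMA5, PSMA2 and PSMD5 were kept. In TPM 4 genes lay below both controls instead of 0, and the means of 6 genes turned. Without a filter on low counts 6 of 31 were called higher instead of 3 of 30, beside 2308 of 17823 genes (12.9%). When single libraries were left out, with the lone library assumed to vary like the other group, between 0 and 6 were called: 0 without overexpressing replicate 1 (6.35% of all genes in that fit) or replicate 3 (9.80%), 5 without control replicate 6 (14.7%) and 6 without control replicate 8 (15.3%). Over all genes tested, these fits called between 756 and 1156 genes higher and between 874 and 1548 lower with a log2 fold change of at least 1, and between 858 and 2119 higher and between 967 and 2274 lower at any size, each lowest without overexpressing replicate 1. The median log2 fold change then ranged from 0.085 to 0.25 over all members, from 0.32 to 0.47 for PSMA, from 0.27 to 0.33 for PSMB, from 0.035 to 0.18 for PSMC and from -0.037 to 0.12 for PSMD genes, and the log2 ratio of the summed CPM from 0.15 to 0.28.

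Among the 30 members and the 4 unnamed genes, signs changed in these fits as follows. The log2 fold change ranged from -0.087 to 0.16 for PSMC3, -0.14 to 0.071 for PSMC4, -0.086 to 0.0099 for PSMC6, -0.13 to 0.059 for PSMD1, -0.13 to 0.10 for PSMD4, -0.066 to 0.14 for PSMD8, -0.041 to 0.088 for PSMD9, -0.21 to 0.051 for PSMD10, -0.076 to 0.15 for PSMD11, -0.11 to 0.33 for the unnamed gene at PSMB5 and -0.19 to 0.13 for the unnamed gene at PSMB6. The cause was not tested. No paired analysis was possible because the RNA-seq groups share no replicate number. Each tested member had at least 612 counts in every library.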
